A study of Rattus norvegicus with 56 samples.

Results

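The genes described here code for the receptors through which the fast transmitters GABA, glutamate and glycine act, together with the enzyme and the vesicular transporters that make or package these transmitters. They were chosen by name, without a filter on a measured value, but with earlier results of these data known. A transcript cluster, the probes of 1 transcribed region on the array, had to carry exactly 1 gene symbol. The symbol had to belong to the GABA-A, GABA-B, AMPA, kainate, NMDA, metabotropic glutamate or glycine receptor families or be Slc32a1, Slc17a6, Slc17a7, Gad1 or Gad2. Where a gene had several such clusters, the brightest over all arrays was taken. This gave 31 genes out of the 14557 with a single-symbol cluster among 36685 clusters. They comprised 8 GABA-A subunits, 3 rho subunits, 2 GABA-B subunits, 2 glycine receptor subunits, 1 AMPA, 2 kainate and 6 NMDA receptor subunits, 3 metabotropic glutamate receptors and 4 genes of synthesis and vesicle loading. Gria1, Gad1 and other genes of these families without such a cluster were not analysed here.

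RNA from the medial hypothalamus of male Wistar rats aged 3 months, from tissue that held the paraventricular nucleus, was measured on 56 Affymetrix rat gene arrays, 1 rat per array. Rats of the CNT group (n = 5) went through no procedure. Subdiaphragmatic vagotomy (VG) or a sham operation that spared the nerves (SH) was followed 30 days later by an i.p. injection of saline (SH NaCl n = 4, VG NaCl n = 3) or of 10 µg LPS, a bacterial endotoxin, in 100 µl (SH LPS n = 4, VG LPS n = 5). The remaining rats had s.c. injections for 10 days of saline (NaCl-pre), of celecoxib (CEL) or SC-560 (SC560), inhibitors of cyclooxygenase 2 and 1, or of indometacin (INDOM), which inhibits both, at doses not given in the sources used here. They then received NaCl or LPS in the same way (NaCl-pre n = 3 and 4, CEL n = 5 and 5, SC560 n = 5 and 5, INDOM n = 5 and 3). Tissue was taken 120 min after the last injection.

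GABA and glycine open pentameric chloride channels and mostly inhibit the neuron, whereas AMPA, kainate and NMDA receptors are cation channels opened by glutamate. GABA-B and metabotropic glutamate receptors act more slowly, through G proteins. In the hypothalamus, GABA and glutamate synapses carry most of the fast input to the neurosecretory cells of the paraventricular nucleus, and the main vesicular glutamate transporter of its neurons is that encoded by Slc17a6, while Slc17a7 is the transporter typical of cerebral cortex.

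Sequences are shown for the genes on which the results turn. Gabrg1 was chosen on these arrays for qPCR in the study, as was Gria1, which was not analysed here. In that qPCR, as the paper reports, Gabrg1 did not respond to the conditions of the study. Its primers, from the study's supplementary table, lie in a gene on chromosome 14 and were, 5′ to 3′:
Gabrg1 forward: acaaccctcagtacaatcgc
Gabrg1 reverse: tggggataccgaagttttgc
Gabrd, Gabbr2 and Slc17a7 varied together over the arrays, as described further on. The 250 bases before their annotated starts are shown from RefSeq (build GRCr8), read in the direction of the gene, with GC boxes (GGGCGG on either strand, which may overlap) in capitals. They lie at chr5:171252710-171252959, minus strand, for Gabrd, at chr5:66083696-66083945, minus strand, for Gabbr2, and at chr1:104785955-104786204, plus strand, for Slc17a7.
Gabrd: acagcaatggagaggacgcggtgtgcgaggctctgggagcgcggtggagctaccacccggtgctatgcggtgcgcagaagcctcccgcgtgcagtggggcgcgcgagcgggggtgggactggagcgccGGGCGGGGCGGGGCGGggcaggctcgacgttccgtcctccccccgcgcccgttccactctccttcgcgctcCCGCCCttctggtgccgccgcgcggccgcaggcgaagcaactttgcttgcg
Gabbr2: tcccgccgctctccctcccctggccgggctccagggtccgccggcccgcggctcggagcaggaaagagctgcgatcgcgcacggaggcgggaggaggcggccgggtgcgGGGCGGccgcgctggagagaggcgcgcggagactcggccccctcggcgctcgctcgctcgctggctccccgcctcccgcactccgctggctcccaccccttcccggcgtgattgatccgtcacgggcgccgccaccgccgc
Slc17a7: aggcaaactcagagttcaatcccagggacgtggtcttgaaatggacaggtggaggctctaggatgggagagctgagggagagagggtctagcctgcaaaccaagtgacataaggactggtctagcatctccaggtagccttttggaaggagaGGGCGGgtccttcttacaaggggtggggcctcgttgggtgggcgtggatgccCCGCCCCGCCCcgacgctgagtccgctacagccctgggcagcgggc
The 3 stretches held 4, 1 and 3 GC boxes. A stretch was on file for 24 of the 31 genes, and 11 of these 24 held a GC box, against 30.5% of 33469 such stretches. The letters TATAAA were found on either strand in 2 of the 24 (12.9% of all) and CCAAT in 10 (34.0% of all). TGACGTCA, the cyclic AMP response element, was found in 0 of the 24 (1.59% of all). The median number of CG dinucleotides was 13 in the 24 stretches and 5 in all.

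One array went against its tissue label. Array 46, labelled VG LPS, had log2 intensities of 4.95 for Oxt and 4.82 for Avp, the hormone genes of the paraventricular nucleus, where the other 55 arrays lay between 8.82 and 10.79 and between 8.65 and 10.64. Of 14 measured hypothalamic markers 12 were lower in it than in every other array. All 6 measured markers of cortex and hippocampus were higher than in every other array (Neurod6, a transcription factor of cortical excitatory neurons, at 8.39 against 2.52 to 4.68), and so were all 5 markers of the choroid plexus. Of the 31 genes, 13 had their lowest and 4 their highest value of all arrays in it, as did 5.91% and 4.67% of all clusters. The results that turn on VG LPS are therefore given with and without array 46. The array medians of the linear intensities lay between 16.4 and 18.9, and the pairwise correlations of the arrays between 0.932 and 0.976. The labels run from 1 to 56, with the order of groups starting again at 41, and do not say what separates arrays 1 to 40 from 41 to 56. A lower intensity can stand for fewer cells of a type or for less RNA per cell, and these cannot be told apart in tissue RNA.

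**Figure D1:**
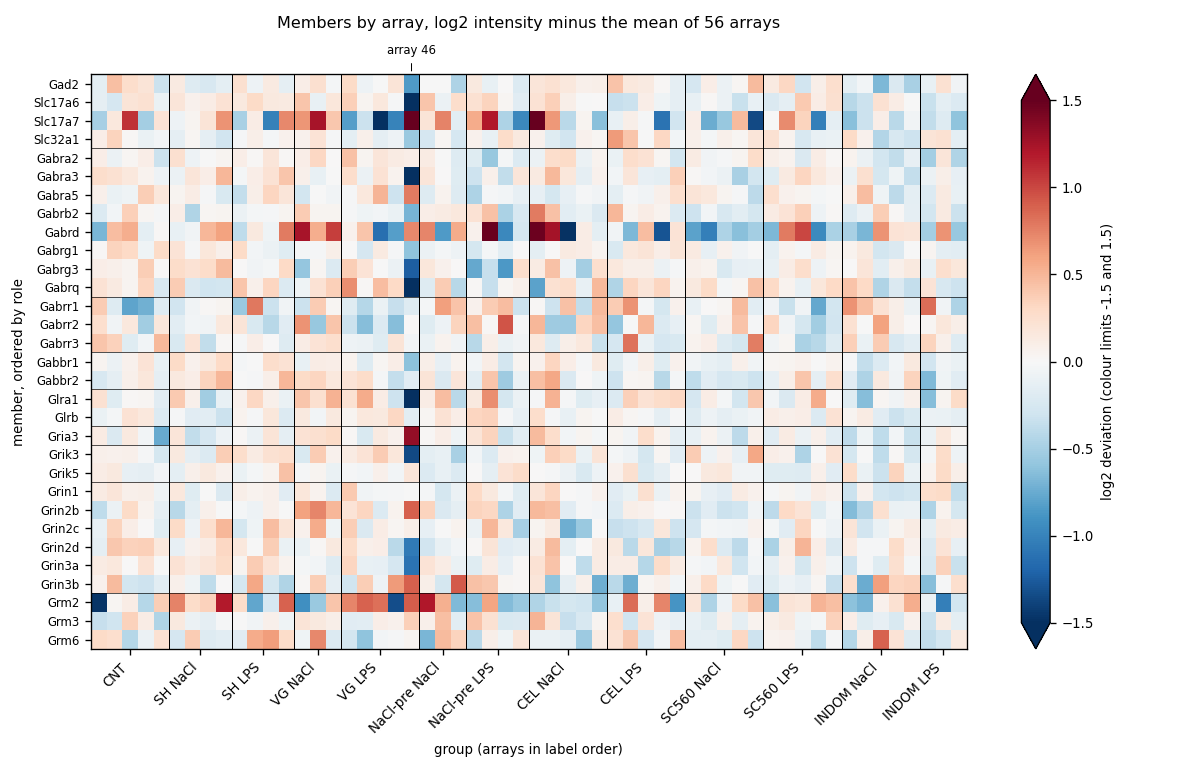
Log2 intensity of each of the 31 genes (rows, ordered by role) in each of the 56 arrays (columns, by group), as the deviation from the gene's mean over all arrays. Array 46 stands apart in many rows, and Slc17a7, Gabrd and Grm2 vary most, with SDs over the arrays of 0.92, 0.73 and 0.64.

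No gene of the set passed an adjusted p of 0.05 (limma, Benjamini-Hochberg adjustment over all 36685 clusters) in any of the 12 comparisons. The interval of a difference is therefore given where it shows how large a change these arrays still allow. Levels on an array depend on the probes and were not compared between genes. Over the 56 arrays 27 of the 31 genes had a mean above the median of all cluster means, 4.08 on the log2 scale, and Gabrr1, Gabrr2, Gabrr3 and Grin3b lay below it. The median SD over the arrays was 0.28 for the 31 genes and 0.34 for all clusters.

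Gad2 codes for the smaller of the GABA-synthesizing glutamate decarboxylases and had a mean log2 intensity of 8.69. Slc32a1, the vesicular transporter that loads both GABA and glycine, had 8.10. In CNT rats Gad2 lay between 8.38 and 9.14 with a median of 8.89, and Slc32a1 between 8.00 and 8.43 with a median of 8.12. The 13 group means spanned 8.38 to 8.84 for Gad2 and 7.93 to 8.36 for Slc32a1, a narrow band for both. Slc17a6, which loads glutamate, had a mean of 8.45 with group means from 8.20 to 8.65. Slc17a7 had a mean of 4.85 and the widest spread of the set: 2.88 to 7.37 in the 55 arrays other than 46, and 8.90 in array 46, whose cortical markers were also the highest.

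Among the GABA-A subunits, Gabra2, Gabra3 and Gabra5, alpha subunits that shape benzodiazepine binding, had means of 8.88, 7.75 and 8.09. Gabrb2, a beta subunit that contributes to the GABA site, had 8.41, and the gamma subunit genes Gabrg1 and Gabrg3 had 8.47 and 7.01. Gabrd, the delta subunit of receptors outside the synapse, had 4.60, and Gabrq, the theta subunit found mainly in hypothalamus and brain stem, had 6.45. Gabrg1 was the steadiest of these over groups, with means from 8.33 to 8.65. Gabrd ranged from 3.12 to 6.08 over the arrays, and in CEL NaCl alone the 5 arrays read 6.07, 5.85, 3.12, 4.71 and 4.45. The rho subunits, best known from the retina, had means of 3.29 (Gabrr1), 3.58 (Gabrr2) and 2.79 (Gabrr3). The GABA-B subunits had 10.00 (Gabbr1, which binds GABA) and 8.56 (Gabbr2, which couples to the G protein), with group means from 9.85 to 10.20 and from 8.26 to 8.83.

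The glycine receptor subunits had means of 6.54 (Glra1, the adult alpha subunit) and 8.58 (Glrb, which anchors the receptor to gephyrin). Outside array 46, where it read 3.56, Glra1 lay between 5.90 and 7.23. Gria3, the only AMPA receptor subunit with a cluster of a single symbol, had 6.98. The kainate receptor subunits Grik3, which can form channels alone, and Grik5, which needs a partner, had 5.99 and 6.83. Of the NMDA receptor subunits, Grin1, which every such receptor holds, had 8.04, and its group means ran from 7.82 to 8.15. The subunits that set channel kinetics had 7.04 (Grin2b), 5.85 (Grin2c) and 5.42 (Grin2d), and the glycine-binding Grin3a and Grin3b had 6.31 and 3.46. The presynaptic and glial metabotropic receptors Grm2 and Grm3 had 4.20 and 7.70, and Grm6, known from retinal ON bipolar cells, had 4.12. Grm2 ranged from 2.73 to 5.40 over the arrays, with group means from 3.74 to 4.84. Its ranges overlapped between most groups. Those of CEL NaCl (3.61 to 3.94) and INDOM LPS (3.17 to 4.11) lay below that of SH NaCl (4.47 to 5.39), but these groups were picked after seeing the values. In the test over the 13 groups described further on, Grm2 was not among the 2 genes with an unadjusted p below 0.05.

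The effect of LPS was asked over 51 arrays, with the 6 procedures as additive terms. Of the 31 genes 0 passed, against 0.395% of all clusters, and 0 had an unadjusted p below 0.05, against 4.9% of all clusters. The median log2 difference was -0.04 for the 31 genes and 0.00 for all clusters, with 8 genes above 0 and 23 below. The smallest p belonged to Slc32a1, with 0.10 (SE 0.06, 95% interval -0.03 to 0.23, adjusted p = 1.00 in limma). Gad2 differed by 0.07 (interval -0.07 to 0.21), Slc17a6 by -0.11 (-0.30 to 0.08), Gabrg1 by -0.04 (-0.14 to 0.05) and Grin2b by -0.02 (-0.18 to 0.13). Over all 31 genes the intervals ended at -0.82 (Slc17a7) on the low side and 0.34 (Grm2) on the high side. In the same fit 11 of 11 measured genes of a list for the response to LPS were higher, and 10 passed the adjusted threshold. Among the 11, Ptgs2, the inducible cyclooxygenase, rose by 1.15 (SE 0.13, adjusted p = 5.7e-07 in limma). Nfkbia, the feedback inhibitor of NF-κB, rose by 1.34 (SE 0.16). Without array 46 the difference was -0.42 for Slc17a7 (limma adjusted p = 0.967) and 0.12 for Slc32a1 (adjusted p = 0.980), and these 2 of the 31 genes (6.45%) were below an unadjusted 0.05, beside 5.08% of clusters.

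**Figure D2:**
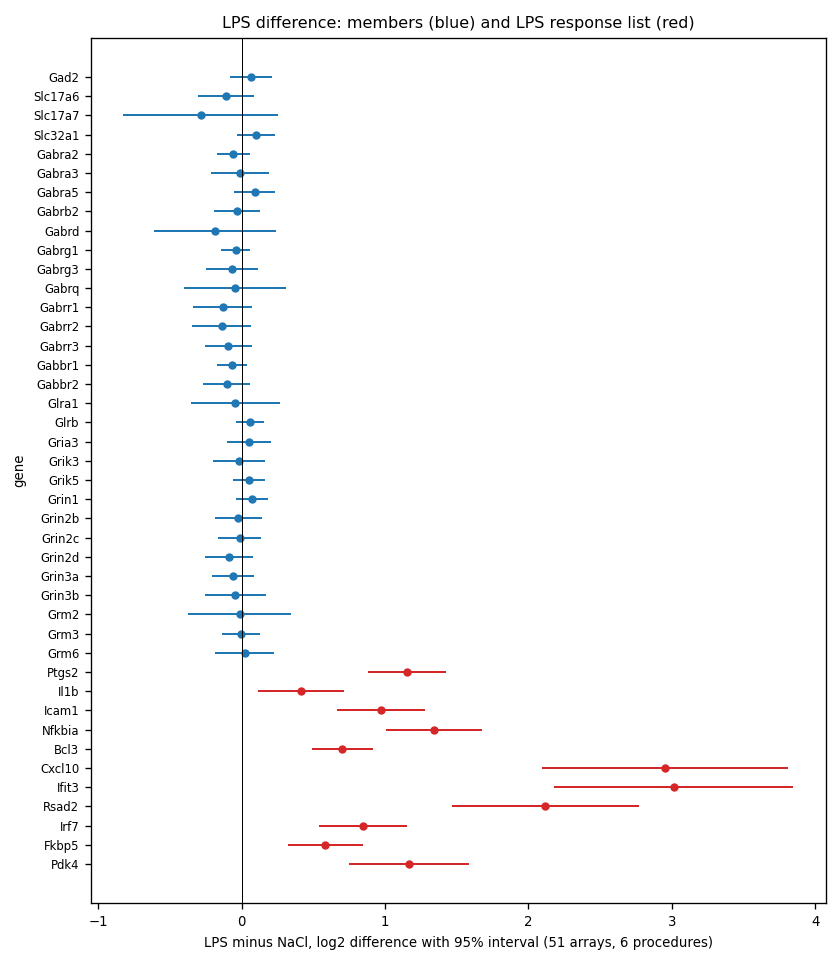
LPS minus NaCl over 51 arrays, as log2 difference with its 95% interval, for the 31 genes (blue) and the 11 measured genes of the LPS response list (red). Every interval of the 31 genes includes 0, and their estimates lie between -0.29 and 0.10, while Ptgs2 lies at 1.15 and Ifit3 at 3.01.

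Within the sham-operated rats, LPS against NaCl (4 against 4 arrays) gave 0 of 31 genes past the adjusted threshold, where 0% of all clusters passed, and 0 with an unadjusted p below 0.05, against 3.42% of clusters. The smallest p was that of Grm6, at 3.95, 4.67, 4.75 and 4.39 in SH LPS and 3.87, 4.49, 3.93 and 3.96 in SH NaCl, a difference of 0.38 (SE 0.23, adjusted p = 1.00 in limma) with overlapping groups. The intervals were wide here: that of Slc17a7 reached down to -2.08.

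Vagotomy without LPS was compared as VG NaCl against SH NaCl. Of the 31 genes 0 passed (0% of all clusters did), and 2 had an unadjusted p below 0.05, 6.45% of the genes beside 7.97% of all clusters. Grin2b, the NMDA receptor subunit abundant in young and forebrain synapses, read 7.65, 7.78 and 7.54 in VG NaCl and 6.63, 6.89, 7.12 and 7.04 in SH NaCl. The groups did not overlap, and the difference was 0.74 (SE 0.20, interval 0.31 to 1.16, adjusted p = 0.403 in limma). However, Grin2b has 2 clusters on the array and they disagreed. The dimmer one read 5.02, 6.23 and 5.39 in VG NaCl and 5.16, 5.75, 6.19 and 6.37 in SH NaCl. Its difference was -0.32 (SE 0.45), and the mean of both clusters gave 0.21. The r between the 2 clusters over the arrays was 0.14, and -0.02 without array 46. Values of Grin2b elsewhere are those of the brighter cluster unless the dimmer one is named, and hold for that cluster only. Gabrg3 was lower, at 6.43, 7.04 and 6.80 in VG NaCl against 7.28, 7.22, 7.29 and 7.49 in SH NaCl. Its groups did not overlap either, with a difference of -0.56 (SE 0.26, adjusted p = 0.612 in limma). The same held for Grin3a (6.12 to 6.28 in VG NaCl, 6.43 to 6.60 in SH NaCl) and Gria3 (7.20 to 7.27, 6.61 to 7.16). The share of all clusters without overlap was not computed, here or in the comparisons below, so such separation is given as a description. Among the genes next in order of p, Grm2 differed by -0.99 (interval -2.08 to 0.10) and Gabrd by 0.71 (interval -0.11 to 1.53). All VG NaCl arrays carry numbers up to 40, while 3 of the 4 SH NaCl arrays carry numbers from 41, and with this division as a term Grin2b differed by 0.94 (limma adjusted p = 0.402).

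**Figure D3:**
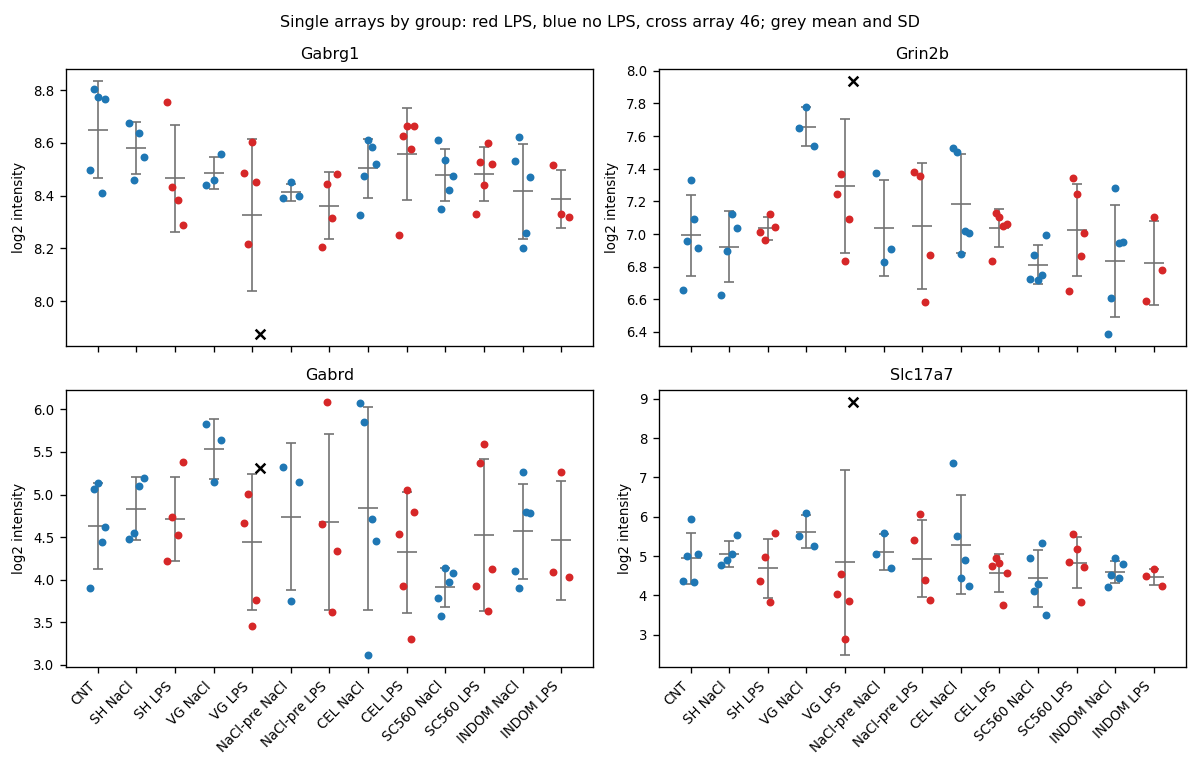
Log2 intensity of Gabrg1, Grin2b (brighter cluster), Gabrd and Slc17a7 in every array by group, red for LPS and blue for no LPS, with the mean and SD of each group in grey and array 46 as a cross. The 3 VG NaCl arrays are the highest group for Grin2b (mean 7.66) and Gabrd (5.54). Array 46 is the lowest of the VG LPS group for Gabrg1 and the highest for Grin2b, Gabrd and Slc17a7.

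After LPS, the same question was asked as VG LPS against SH LPS (5 against 4 arrays). Here 0 of 31 genes passed (0% of clusters) and 2 had an unadjusted p below 0.05, 6.45% beside 4.14% of clusters. Grm6 read 3.85, 3.51, 4.08, 4.10 and, in array 46, 4.16 in VG LPS, and differed by -0.50 (SE 0.22, adjusted p = 1.00 in limma), with groups that overlapped, and by -0.56 without array 46. Grin3a, the NMDA subunit that lowers calcium permeability, read 6.64, 6.20, 6.19, 6.06 and, in array 46, 5.20, against 6.36, 6.69, 6.51 and 6.37 in SH LPS. It differed by -0.42 (adjusted p = 1.00 in limma) with array 46 and by -0.21 (adjusted p = 0.999) without it. Without array 46 the other gene with an unadjusted p below 0.05 besides Grm6 was Slc17a7, with -0.87 (adjusted p = 0.975 in limma), whereas with the array it was 0.15 higher.

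Averaged over both injections, VG against SH gave 0 of 31 genes past the threshold (0% of clusters) and 3 at an unadjusted p below 0.05, 9.68% of the genes beside 7.07% of clusters. These were Grin2b with 0.50 (SE 0.14, adjusted p = 0.532 in limma), Grin3a with -0.35 (SE 0.14, adjusted p = 0.615) and Gabrg3 with -0.38 (SE 0.17, adjusted p = 0.680). Without array 46 they differed by 0.42, -0.25 and -0.25, and Glrb, with 0.21, also had an unadjusted p below 0.05 (adjusted p = 0.626 in limma). The dimmer cluster of Grin2b differed by -0.13 (SE 0.30) in this comparison.

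LPS in vagotomized rats was compared as VG LPS against VG NaCl. With all arrays, 0 of 31 genes passed, beside 0.00273% of clusters, and 2 had an unadjusted p below 0.05, 6.45% beside 7.02% of clusters. Gabrd read 4.66, 5.01, 3.46, 3.77 and, in array 46, 5.32 in VG LPS and 5.83, 5.14 and 5.64 in VG NaCl, a difference of -1.09 (SE 0.38, adjusted p = 0.562 in limma). Gabrr2, with a mean of 3.58 below the median of all cluster means, differed by -0.54 (SE 0.24, adjusted p = 0.679 in limma). Its difference was -0.63 without array 46, -0.91 without array 14 and -0.28 without array 13, where arrays 13 and 14 are of VG NaCl. Without array 46, 5 of 31 genes had an unadjusted p below 0.05, 4 lower and 1 higher in VG LPS, beside 9.00% of clusters. Gabrd then no longer overlapped between the groups, with -1.31 (SE 0.37, adjusted p = 0.376). Slc17a7 then read 4.03, 4.53, 2.88 and 3.85 in VG LPS against 5.52, 6.09 and 5.26 in VG NaCl, with no overlap and a difference of -1.80 (SE 0.43, adjusted p = 0.294 in limma), where with array 46 at 8.90 it had been -0.78 (interval -2.55 to 0.98), and -0.29 with array 46 kept and array 11 of VG LPS left out. Grin2b differed by -0.52 (SE 0.16) without the array and by -0.36 (SE 0.20) with it. The dimmer cluster of Grin2b differed by 0.03 (SE 0.43) with all arrays. The median over the 31 genes moved from -0.19 to -0.03, and that of all clusters was 0.00 and 0.01.

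Setting the LPS effect of VG rats against that of SH rats gave 0 of 31 genes (0.00273% of clusters) and 1 gene with an unadjusted p below 0.05, 3.23% beside 5.37% of clusters, namely Grm6 with -0.70 (SE 0.33, adjusted p = 0.924 in limma). It was -0.76 (adjusted p = 0.729) without array 46 and -0.42 without array 14 of VG NaCl. Without array 46 there were 5 such genes beside 6.63% of clusters, and 0 passed the adjusted threshold. They were led by Gabrg3 with 0.63 (adjusted p = 0.692 in limma) and Grin2b with -0.63 (adjusted p = 0.696). With all arrays Grin2b differed by -0.47 (SE 0.27), but its dimmer cluster by 0.39 (SE 0.60). VG LPS against CNT gave 0 of 31 genes (0% of clusters) and 2 below an unadjusted 0.05, 6.45% beside 5.77% of clusters. Gabrg1 read 8.50, 8.80, 8.77, 8.41 and 8.77 in CNT and 8.48, 8.22, 8.61, 8.45 and, in array 46, 7.88 in VG LPS, a difference of -0.32 (SE 0.14, adjusted p = 0.856 in limma) with overlapping groups. Without array 46 it was -0.21 (interval -0.47 to 0.05, adjusted p = 0.705). Grin2d likewise went from -0.43 (adjusted p = 0.858 in limma) to -0.21 (adjusted p = 0.754), and Slc17a7 was instead the gene with the smallest p, at -1.12 (SE 0.37, adjusted p = 0.562). The comparisons among VG and SH groups share arrays, so their values are not separate evidence.

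**Figure D4:**
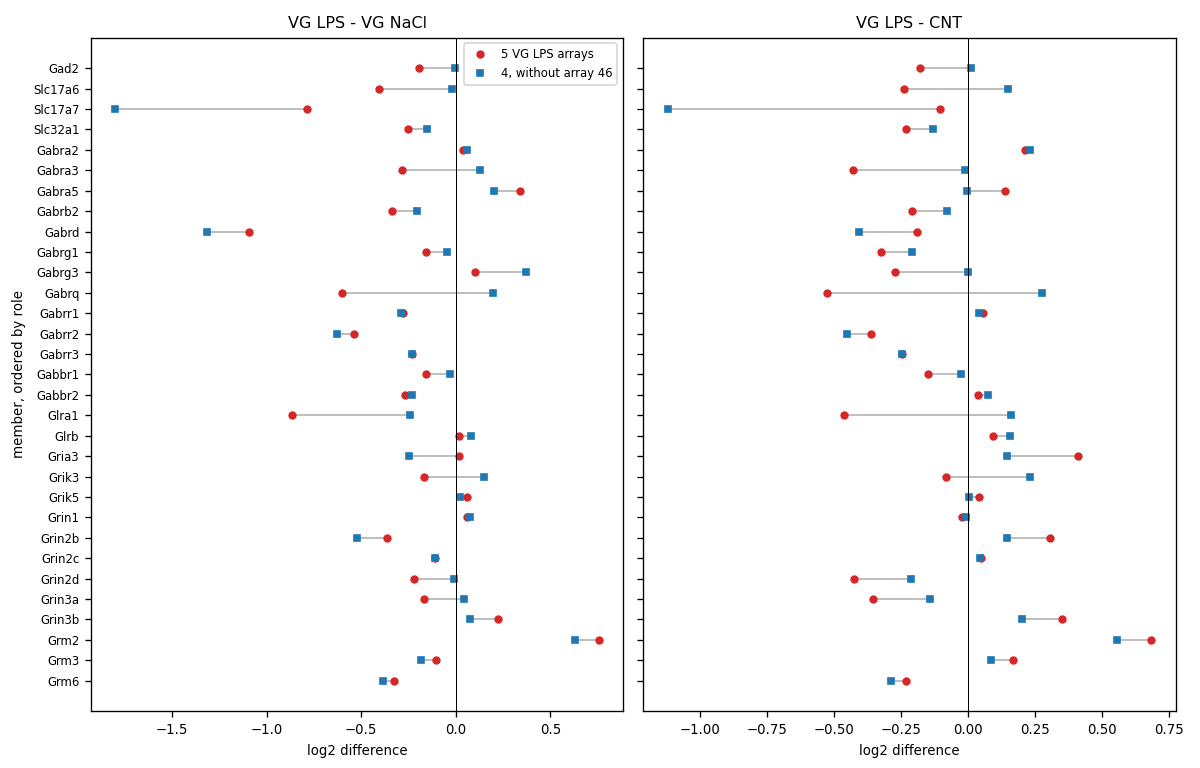
Log2 difference of each of the 31 genes in VG LPS against VG NaCl (left) and against CNT (right), with all 5 VG LPS arrays (red circles) and without array 46 (blue squares). Slc17a7 moves furthest, to -1.80 and -1.12, and the median of the 31 genes moves from -0.19 to -0.03 and from -0.15 to 0.00.

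The pretreated rats were compared as the average of each drug's NaCl and LPS groups against that of the NaCl-pre groups, over 35 arrays. Celecoxib gave 0 of 31 genes (0% of clusters) and 2 below an unadjusted 0.05, 6.45% beside 4.82% of clusters. These were Grin3b with -0.46 (SE 0.18) and Gad2 with 0.24 (SE 0.11), both at an adjusted p of 0.999 in limma. Grin3b, with a mean of 3.46, lay below the median of all cluster means. Gad2 read 8.69, 8.69 and 8.23 in NaCl-pre NaCl, 8.84, 8.58, 8.70 and 8.49 in NaCl-pre LPS, 8.88, 8.92, 8.86, 8.77 and 8.78 in CEL NaCl and 9.12, 8.86, 8.83, 8.71 and 8.56 in CEL LPS. All 5 CEL NaCl arrays lay above the 3 NaCl-pre NaCl arrays, while the LPS groups overlapped. SC-560 gave 0 of 31 genes (0% of clusters) and 1 below an unadjusted 0.05, 3.23% beside 4.57% of clusters, Gabrr1 with -0.36 (SE 0.18, adjusted p = 0.999 in limma), one of the 4 dim genes.

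Indometacin gave 0 of 31 genes (0.00273% of clusters) and 2 below an unadjusted 0.05, 6.45% beside 6.17% of clusters. Slc17a6 read 8.04, 8.13, 8.68, 8.56 and 8.45 in INDOM NaCl and 8.12, 8.31 and 8.25 in INDOM LPS, against 8.86, 8.37 and 8.71 and 8.68, 8.78, 8.48 and 8.29 in the NaCl-pre groups. The difference was -0.31 (SE 0.12, interval -0.54 to -0.07, adjusted p = 0.725 in limma), and the groups overlapped. Glrb differed by -0.23 (SE 0.09, adjusted p = 0.732 in limma). Array numbers do not separate all drugs from their controls, but all 8 INDOM arrays carry numbers from 41, all CEL and SC560 arrays numbers up to 40, and the NaCl-pre arrays both.

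A test of any difference among the 13 groups, over all 56 arrays, called 0 of the 31 genes, beside 0.0709% of clusters, and 2 had an unadjusted p below 0.05, 6.45% beside 6.72% of clusters. These were Grin2b (F = 2.55, adjusted p = 0.609 in limma), with group means from 6.81 to 7.66, and Gabra2 (F = 2.01, adjusted p = 0.736), with group means from 8.62 in INDOM LPS to 9.05 in VG LPS. Without array 46 there were 3, beside 7.99% of clusters: Grin2b (F = 2.55), Gabrg3 (F = 2.36) and Gabra2 (F = 1.99), at adjusted p-values of 0.498, 0.526 and 0.620. The F of Gabra2 was 3.06 without array 50 of INDOM LPS.

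Genes that work with these receptors were taken from lists of partners. Of 3 measured genes for auxiliary subunits of the GABA-B receptor, Kctd16 passed the test over the 13 groups (F = 4.92, adjusted p = 0.0486 in limma). Its group means ran from 4.95 ± 0.15 (SD, n = 5) in INDOM NaCl to 5.77 ± 0.13 (SD, n = 5) in VG LPS. The lowest and the highest arrays of these 2 groups were 4.79 and 5.13, and 5.59 and 5.90, so they did not overlap. However, these groups were picked for having the lowest and the highest mean, so their separation is given as a description only. All 5 INDOM NaCl arrays come after the point where the order of groups in the labels starts again. Of the 5 VG LPS arrays, 4 come before that point. The call was fragile: it held in 17 of 66 alternative fits, with adjusted p-values from 0.0179 to 0.173, and not without array 46 (0.0857). The fit without array 46 is counted among the 66 both as a setting and as an array left out. In none of the other 11 comparisons did Kctd16 pass, the smallest p being that of VG LPS against CNT (0.37, SE 0.12, adjusted p = 0.856 in limma). Of the other partner genes measured, none passed in any comparison: 10 auxiliary subunits of AMPA and kainate receptors, 7 genes of the inhibitory postsynapse and of chloride transport, 5 of the excitatory postsynapse, 5 of glutamate transport, 2 of GABA uptake and 2 of glycine uptake and breakdown. Closest among them in a vagotomy comparison was Lhfpl4, which helps to hold GABA-A receptors at synapses, with -0.38 (SE 0.12, adjusted p = 0.590 in limma) in VG against SH.

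Some of the 31 genes varied over the arrays together with genes that mark the hypothalamus or neighbouring tissue. Over the 55 arrays without array 46, each of the 31 genes was set against the mean level of 3 lists, in 93 relations: thalamus, of which 3 of 8 listed genes were measured (Calb2, Gbx2 and Plekhg1), cortex and hippocampus (6 of 8), and hypothalamus (14 of 17). The lists and the pairs below were chosen with earlier results of these data known. With the thalamus markers 11 of 31 genes were related at an adjusted p below 0.05, 9 positively and 2 negatively, with the cortical markers 1, and with the hypothalamic markers 13, 5 positively and 8 negatively. An r at least as large in size as that of the weakest related gene of the set (0.39, 0.42 and 0.35) was found in 3.1%, 0.131% and 5.99% of all clusters, and in 5.50%, 0.104% and 10.08% of the clusters above the median intensity. The size of r was set by the 31 genes themselves, so these shares are given as a description. Gabrd followed the thalamus markers most closely (Pearson's r = 0.87, Spearman's rho = 0.89, permutation p = 1e-05 for both, the smallest that 100000 permutations can give, and adjusted p = 0.000133 and 0.000186). Without the 2 arrays farthest out it was 0.88, within arrays 1 to 40 0.86, within arrays 41 to 56 0.94, and on deviations from group means 0.87.

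Gabbr2 had r = 0.82 (rho = 0.83), with 0.86 and 0.79 in the 2 ranges of array numbers. For Slc17a6 r was 0.63 (rho = 0.68), for Grin2b 0.60 (rho = 0.67) and for Slc17a7 0.59 (rho = 0.59), each with a permutation p of 1e-05, and for Gabrb2 0.59 (rho = 0.59, permutation p = 3e-05). The adjusted p-values of these 6 genes lay between 0.000133 and 0.00031 for r and rho. For Slc17a6, Grin2b, Slc17a7 and Gabrb2 r was 0.68, 0.70, 0.55 and 0.65 without the 2 farthest arrays, and between 0.58 and 0.86 in the 2 ranges of array numbers. The 2 negative relations were those of Gabrq (r = -0.48, rho = -0.48, permutation p = 0.00032, adjusted p = 0.00213) and Slc32a1 (r = -0.39, rho = -0.39, permutation p = 0.00336, adjusted p = 0.0149). They were -0.47 and -0.40 without the 2 farthest arrays, -0.41 and -0.34 in arrays 1 to 40 and -0.69 and -0.47 in arrays 41 to 56. So the glutamate transporter gene Slc17a6 was higher, and the GABA transporter gene Slc32a1 lower, in arrays with more signal from the thalamus markers. With the hypothalamic markers Gabrd had r = -0.60 (rho = -0.58, permutation p = 1e-05, adjusted p = 0.000133), but -0.72 in arrays 1 to 40 and -0.14 in arrays 41 to 56, while Grik3 had r = 0.49 (rho = 0.46, permutation p = 0.00014, adjusted p = 0.00118), with 0.41 and 0.79 in the same ranges.

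**Figure D5:**
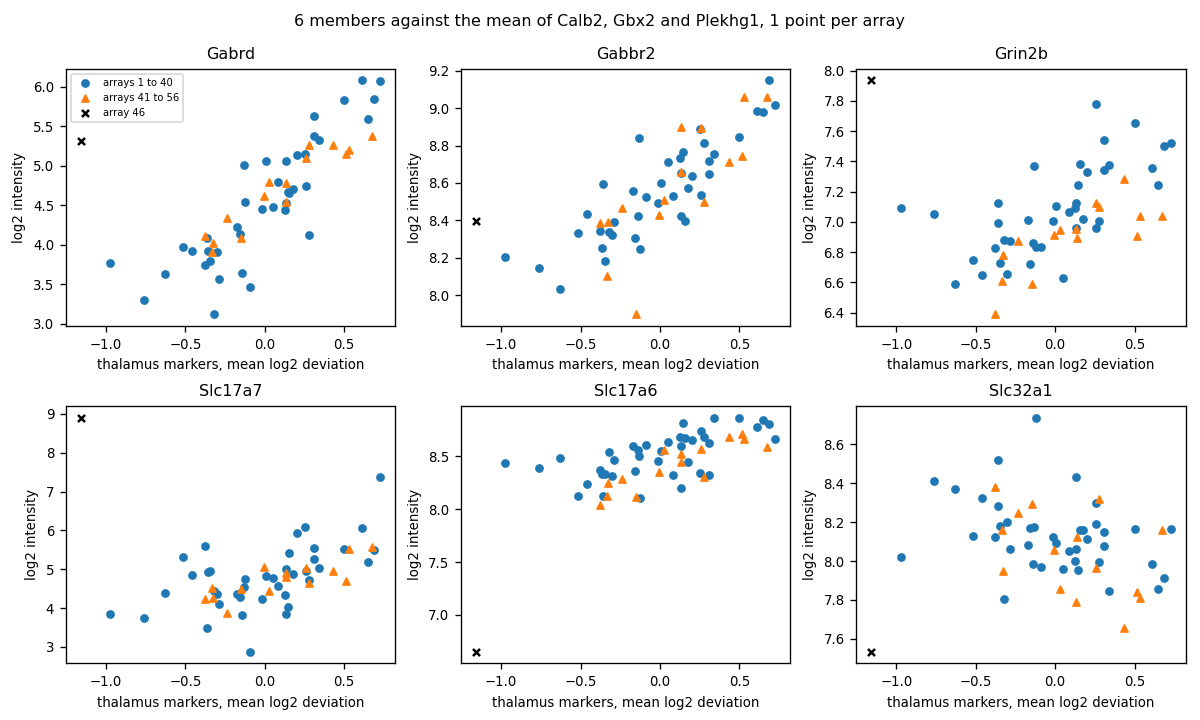
Log2 intensity of 6 genes against the mean deviation of the thalamus markers Calb2, Gbx2 and Plekhg1, 1 point per array, circles for arrays 1 to 40, triangles for 41 to 56 and a cross for array 46. Gabrd (r = 0.87) and Gabbr2 (r = 0.82) rise along the whole range, Grin2b, Slc17a7 and Slc17a6 less tightly, and Slc32a1 falls (r = -0.39), over the 55 arrays without array 46.

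The thalamus markers also moved with some of the group differences above. Their mean level lay between 0.25 and 0.50 in VG NaCl and between 0.05 and 0.53 in SH NaCl. In the 4 VG LPS arrays other than 46 it lay between -0.97 and 0.15, so that VG NaCl and VG LPS did not overlap in this mean. The 3 markers did not all move the same way: without array 46, 1 of them was higher in VG LPS than in VG NaCl. Their median difference was then -1.01, and 2 had an unadjusted p below 0.05 in limma. The summed linear intensity of the 3 markers was 670 to 735 in VG NaCl, 652 to 812 in SH NaCl and 200 to 819 in VG LPS, array 46 being the lowest, and none was at 0. The highest VG LPS sum, not that of array 46, lay above all those of VG NaCl, so the sums overlapped. With the mean marker level as a term and without array 46, the difference between VG LPS and VG NaCl was -0.60 for Gabrd (SE 0.34, adjusted p = 0.570 in limma), -1.33 for Slc17a7 (SE 0.49, adjusted p = 0.406) and -0.38 for Grin2b (SE 0.19, adjusted p = 0.525). The Grin2b difference between VG NaCl and SH NaCl was 0.71 (SE 0.16, adjusted p = 0.143). Markers of other tissue moved too. Of 6 measured genes of the meninges, 6 were higher in VG LPS than in VG NaCl (median 0.60, 5 at an unadjusted p below 0.05) and than in SH LPS (median 0.74, 4 below 0.05), and without array 46 the medians were 0.56 and 0.76. Their summed linear intensity was 258 to 534 in VG LPS, 146 to 299 in VG NaCl, 184 to 339 in SH NaCl and 198 to 270 in SH LPS. The 4 measured genes of ependyma and tanycytes were all lower in VG NaCl than in SH NaCl, the comparison in which Grin2b was higher (median -0.55, 2 below 0.05), with sums of 337 to 420 against 580 to 777 that did not overlap. In VG LPS their sum was 517 to 687, and all 4 were higher than in VG NaCl (median 0.42, 2 below 0.05). No gene of these lists passed the adjusted threshold in these 3 comparisons. What part of a difference the amount of neighbouring tissue makes up was not tested beyond these values.

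Among 14 pairs of the genes, 8 were related at an adjusted p below 0.05. The pairs were chosen with earlier results known, and the share of all cluster pairs with such an r was not computed, so the count is a description. Gabrd, Gabbr2, Grin2b and Slc17a7 each followed the thalamus markers, so the relations among them are not separate evidence. The partners of the GABA-B receptor, Gabbr1 and Gabbr2, had r = 0.66 (rho = 0.61, permutation p = 1e-05). Slc32a1 and Slc17a6, transporters of inhibitory and excitatory vesicles, ran opposite to each other (r = -0.64, rho = -0.61, permutation p = 1e-05), with -0.70 in arrays 1 to 40 and -0.76 in arrays 41 to 56. Gabrd and Grin2b had 0.71, Gabrd and Slc17a7 0.68 and Gabrd and Gabbr2 0.76, all with the same permutation p. The adjusted p of these 5 pairs was 2.33e-05, and r was between 0.59 and 0.73 in size without the 2 farthest arrays. Gad2 and Slc32a1, both needed for GABA release, had r = 0.47 (rho = 0.27, permutation p = 0.00031 and 0.0443), with 0.30 and 0.71 in the 2 ranges. Its adjusted p was 0.000543 for r and 0.0757 for rho, and r was 0.32 without the 2 farthest arrays, so the relation rested in part on those. Genes that adjoin each other in the RefSeq order, with 0 or 1 protein-coding genes between them, did not vary together beyond the threshold: r was 0.20 for Gabra2 and Gabrg1 (permutation p = 0.149), 0.22 for Gabra5 and Gabrg3 (0.105), 0.24 for Gabrr1 and Gabrr2 (0.0824) and 0.08 for Gabra3 and Gabrq (0.564).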

How the data were processed

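Hypothalamic RNA of 56 rats was hybridized to Affymetrix Rat Gene 2.1 ST array strips, 1 array per rat. The authors deposited linear intensities for 36685 transcript clusters, made per the labels with RMA in Affymetrix Expression Console. The study's methods name Partek, with RMA background correction, quantile normalization and median polish. As the design foresaw for a linear table, log2 of the intensities was taken before testing. Groups come from the labels.

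Clusters with several symbols (829) or none (21032) entered the fits but were not named. A gene with several single-symbol clusters was represented by the brightest over all arrays. Groups were compared with limma 3.58.1 (R 4.3.3) over 21 (SH, VG, CNT), 35 (pretreated), 51 (LPS over 6 procedures) or 56 arrays, with Benjamini-Hochberg adjustment over all clusters and a threshold of 0.05. The pipeline was tested on simulated data. Relations over arrays used 100000 permutations, two-sided (Python 3.11.15, numpy 2.4.6, scipy 1.17.1). Every gene of the set is named. Values by array, or their lowest, median and highest, were due for Gabrg1 and Gria1 (the latter without a usable cluster), Grin2b, any gene of the set that passed, up to 3 per comparison with the smallest unadjusted p, the 3 with the largest SD, and the enzymes and transporters. Other genes are named from the lists when they passed or held the smallest p of their list. Alternatives changed the model, filter, normalization, clusters or arrays. Leaving out array 46, with or without the thalamus marker level, was added after seeing the data. The genes, lists and comparisons were chosen with earlier results of these data known. Promoter stretches are from RefSeq (GRCr8). Arrays give no depth, and their number limits the precision.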

Additional observations from a re-analysis of the deposited data

Results flagged for a closer look

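In groups of 4 or 5 arrays, Dixon's test at the 95% level was applied to each of the 31 genes, 310 tests in all. It set apart an array 33 times, 10.7% of the tests, where chance gives about 1 in 20. Array 46, labelled VG LPS, was the one set apart in 9 of these, with log2 intensities lower than in the other VG LPS arrays for Gabra3 (5.79, the others 7.67 to 8.02), Gabrb2 (7.71, the others 8.32 to 8.40), Gabrg3 (5.77, the others 6.92 to 7.38), Gabrq (2.81, the others 6.47 to 7.14), Glra1 (3.56, the others 6.23 to 7.09), Grik3 (4.64, the others 6.11 to 6.36) and Slc17a6 (6.65, the others 8.44 to 8.81), and higher ones for Gria3 (8.30, the others 6.75 to 7.12) and Slc17a7 (8.90, the others 2.88 to 4.53). Its tissue markers are given in the report.

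The other 24 were found in other arrays. In CEL LPS an array stood apart as lowest for Gabrg1 in array 21 (8.25, the others 8.58 to 8.67), highest for Gabrr3 in array 22 (3.61, the others 2.54 to 2.69), lowest for Glra1 in array 21 (6.33, the others 6.75 to 6.90), lowest for Grin2b in array 21 (6.83, the others 7.05 to 7.13), highest for Grin2c in array 24 (6.02, the others 5.50 to 5.61) and lowest for Grin3a in array 23 (5.88, the others 6.42 to 6.58). In CEL NaCl an array stood apart as highest for Glra1 in array 27 (7.05, the others 6.35 to 6.52). In CNT an array stood apart as highest for Gabrg3 in array 4 (7.38, the others 7.02 to 7.11). In INDOM NaCl an array stood apart as highest for Grin1 in array 53 (8.11, the others 7.72 to 7.77) and lowest for Grin3b in array 53 (2.71, the others 3.71 to 4.08). In NaCl-pre LPS an array stood apart as lowest for Gabrq in array 17 (6.10, the others 6.47 to 6.53) and highest for Grm2 in array 17 (4.80, the others 3.55 to 3.65). In SC560 LPS an array stood apart as lowest for Gabra2 in array 33 (8.66, the others 8.90 to 8.99) and highest for Grik5 in array 34 (6.91, the others 6.63 to 6.65). In SC560 NaCl an array stood apart as highest for Gabrr1 in array 39 (3.77, the others 3.14 to 3.32) and highest for Grm6 in array 39 (4.43, the others 3.81 to 3.99). In SH LPS an array stood apart as highest for Gabrg3 in array 42 (7.31, the others 6.96 to 7.01), lowest for Grin1 in array 42 (7.88, the others 8.09 to 8.13) and highest for Slc17a6 in array 6 (8.74, the others 8.58 to 8.60). In SH NaCl an array stood apart as lowest for Gabrb2 in array 43 (7.97, the others 8.45 to 8.51), highest for Gabrq in array 8 (6.83, the others 6.15 to 6.24) and highest for Grm6 in array 43 (4.49, the others 3.87 to 3.96). In VG LPS an array stood apart as highest for Grin1 in array 9 (8.44, the others 7.99 to 8.04) and lowest for Grm2 in array 12 (2.87, the others 4.93 to 5.11). Array 21 of CEL LPS was low for 3 genes and array 17 of NaCl-pre LPS, 39 of SC560 NaCl, 42 of SH LPS, 43 of SH NaCl and 53 of INDOM NaCl each stood apart in 2, and the cause was not tested.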

How the results depend on the processing

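Under 17 alternative settings and with each array left out, 0 of the 31 genes passed in any of 496 further fits of the 12 comparisons, and the lowest and highest count with an array left out were 0 and 0 in each comparison. Of 430 further medians of the 31 genes' log2 differences, 20 moved by more than the spread between replicates. These counts hold the fit without array 46 both as a setting and as an array left out, so its moved medians are repeated among the 20. Without array 46 the median was -0.0326 for VG LPS against VG NaCl, -0.0253 for VG LPS against SH LPS, -0.0527 for the difference of the LPS effects and 0.00482 for VG LPS against CNT. With the thalamus marker level as a further term these were -0.0287, 0.0646, -0.116 and 0.0598. Array weights gave -0.093 for VG LPS against VG NaCl and -0.0617 for VG LPS against CNT. With the 2 ranges of array numbers as a term the median was -0.0624 for SH LPS against SH NaCl and -0.0277 for the difference of the LPS effects. The latter was -0.15 among clusters above the median intensity, -0.15 without the arrays with a second number in their label and -0.15 with the mean of all clusters of a gene. The cause was not tested. With each array left out in turn, the medians ranged from -0.257 to -0.0326 (VG LPS against VG NaCl), -0.2 to -0.0253 (VG LPS against SH LPS), -0.31 to -0.0527 (difference of the LPS effects) and -0.193 to 0.00482 (VG LPS against CNT), the value nearest 0 coming each time without array 46.

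Slc17a7 changed sign in VG LPS against SH LPS, from 0.15 to -0.87 without array 46, -0.50 with the marker level added, -0.40 with array weights and -0.13 without array 7, and lay between -0.87 and 0.64 with an array left out. Against CNT it lay between -1.12 and 0.39 with an array left out. Grin2b over all LPS arrays went from -0.02 to 0.0353 without the VG rats, 0.00721 without the CEL rats and 0.0172 with the marker level added. No paired analysis was possible because the numbers in the labels are array numbers, shared by no 2 groups.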
